A study of Homo sapiens with 8 samples.

Results

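A set of 44 genes that encode SR proteins, heterogeneous nuclear ribonucleoproteins (hnRNPs), the kinases that phosphorylate SR proteins and a few of their closest partners was followed through recovery from heat shock. The genes were taken by name, with no threshold on a measured value, and were found by symbol among the 55075 genes of the deposited tables, of which 32200 had a read in any library. They are 11 SR proteins, 2 TRA2 proteins, 6 splicing kinases, 19 hnRNPs (PTBP1 among them), 3 proteins that recognise the 3′ splice site and 3 scaffolds of nuclear speckles. Read counts per gene came from HCT116 cells, an established human colon cancer line, either wild type (WT) or lacking FBXW7 (FBXW7 KO). FBXW7 is an F-box protein that picks substrates for an SCF ubiquitin ligase. Libraries were made after 1 h at 42 °C (heat shock), or after a further 2 h at 37 °C (recovery). The 4 groups were FBXW7 KO recovery, FBXW7 KO heat shock, WT recovery and WT heat shock, with 2 libraries each. Unheated cells were not analysed here, so every change below is between heated states or between heated lines. Whether the KO line is a single clone, and whether the replicates of a group were grown separately, is not stated in the labels, and p-values thus reflect only how these libraries vary.

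SR proteins bind exonic sequences through RNA recognition motifs and recruit the splicing machinery through a domain rich in arginine and serine, which works in a cycle of phosphorylation and dephosphorylation. SRPK kinases phosphorylate it mainly in the cytoplasm, which lets SR proteins enter the nucleus, and CLK kinases do so in the nucleus, where they release SR proteins from speckles. Many hnRNPs bind introns or splice sites and oppose SR proteins. Heat shock is known to block splicing of many transcripts, with dephosphorylation of SRSF10 as a known step, and splicing resumes in recovery. Transcripts of SR proteins and of several hnRNPs carry exons or retained introns whose inclusion sends the mRNA to nonsense-mediated decay. The counts used here are per gene and do not separate these forms from the coding ones.

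Total counts ran from 15507896 to 34387618 per library, and the 44 genes took 1.58 and 1.60% of counts in KO recovery, 1.74 and 1.77% in KO heat shock, 1.20 and 1.23% in WT recovery, and 1.32 and 1.35% in WT heat shock libraries. All 44 passed the filter on low counts, and 17471 genes were tested. FBXW7 itself had 13.8 and 14.0 CPM (counts scaled to a common library size) in KO recovery and 14.9 and 17.4 in KO heat shock libraries, below the 21.7 and 23.0 of WT recovery and the 31.4 and 33.5 of WT heat shock libraries. The 13 colon epithelial markers summed to 2571 and 2673 CPM in KO recovery, 2230.4 and 2345 in KO heat shock, 2929 and 2995 in WT recovery, and 2999 and 3315 in WT heat shock libraries, mostly from keratins. CDX1 was at or near 0, and 7 of the 12 tested were lower and 3 higher in KO than in WT cells after recovery, CDH1 with 52.6 and 53.7 CPM in KO recovery against 130.2 and 132 in WT recovery libraries. Of the 14 markers of immune, erythroid, endothelial and fibroblast cells found by symbol, 12 stayed under 1 CPM in all 8 libraries, while CD68 had 16.1 to 29.8 and COL1A1 6.25 to 9.83 CPM. RNAs without a poly-A tail summed to 55.9 and 63.1 CPM in KO heat shock libraries and to 23.2 to 34.3 CPM in the other 6. Library RNA was either selected for poly-A or depleted of ribosomal RNA, and the labels do not say which was used for which library. Its part in the results below was not tested. The recovery count column was identified from the order of the names in a comparison and the sign of the authors' log2 fold change. Were it the other column, all recovery changes below would turn round, and the heat shock and recovery names of every level and of both comparisons of KO with WT cells would change places.

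With TMM scaling of library sizes, these transcripts mostly fell in WT recovery, while similar numbers rose and fell in KO recovery. As a share of all counts the 44 genes fell with recovery in both lines. In WT cells 25 of 44 genes fell and 4 rose, with a median log2 change of -0.37, while over all tested genes 50.8% changed (26% fell and 24.8% rose) and the median was 0.01. In KO cells 10 rose and 9 fell, with a median of 0.03, against 41.8% of all genes (20.6% rose and 21.1% fell). That share is near the background. The difference of the recovery responses, KO minus WT, passed its own test in 31 genes, positive in 26 and negative in 5, against 56.3% of all genes (28.5% positive and 27.8% negative). After recovery 37 of 44 genes were higher in KO than in WT cells and 1, SRPK2, was lower, against 63.1% of all genes (31.8% higher and 31.3% lower), and the median difference was 0.68. At the end of heat shock 19 were higher in KO cells and 4 lower, against 55.6% of all genes (27.4% higher and 28.2% lower). Recovery and line comparisons use the same 8 libraries, so they are different views of the same values. All adjusted p-values are from the quasi-likelihood test in edgeR, with Benjamini-Hochberg correction across the 17471 genes and a threshold of 0.05, and values after ± are standard errors of log2 changes (n = 2 libraries per group).

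How many of the 44 genes were called depended on the scaling. Column total scaling, which the authors' fold changes use, moved the median of all genes to -0.29 on the log2 scale in the difference of responses and to -0.14 in KO recovery. With it 5 genes rose and 11 fell in KO recovery, beside 2525 and 5104 of all 17471 genes tested. The difference of responses was positive in 19 and negative in 9, beside 3542 and 6431 of all genes. The counts over all genes thus moved with the scaling too. Offsets for transcript length and GC content gave 18 higher and 6 lower genes in KO recovery, beside 3129 and 2664 of 16984 genes. In KO cells at heat shock they gave 15 higher and 10 lower, beside 4495 and 4309. In WT recovery the numbers stayed between 22 and 28 lower and between 3 and 5 higher genes under all alternatives tried. Calls that held in every alternative, fits without single libraries aside, were 9 of 19 in KO recovery and 24 of 29 in WT recovery. In the difference of responses 18 of 31 held. How many calls held over all genes was not counted. Leaving out a library leaves its line with a single matched pair in the recovery fits. Any gene can lose its call there for want of a replicate pair.

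**Figure D1:**
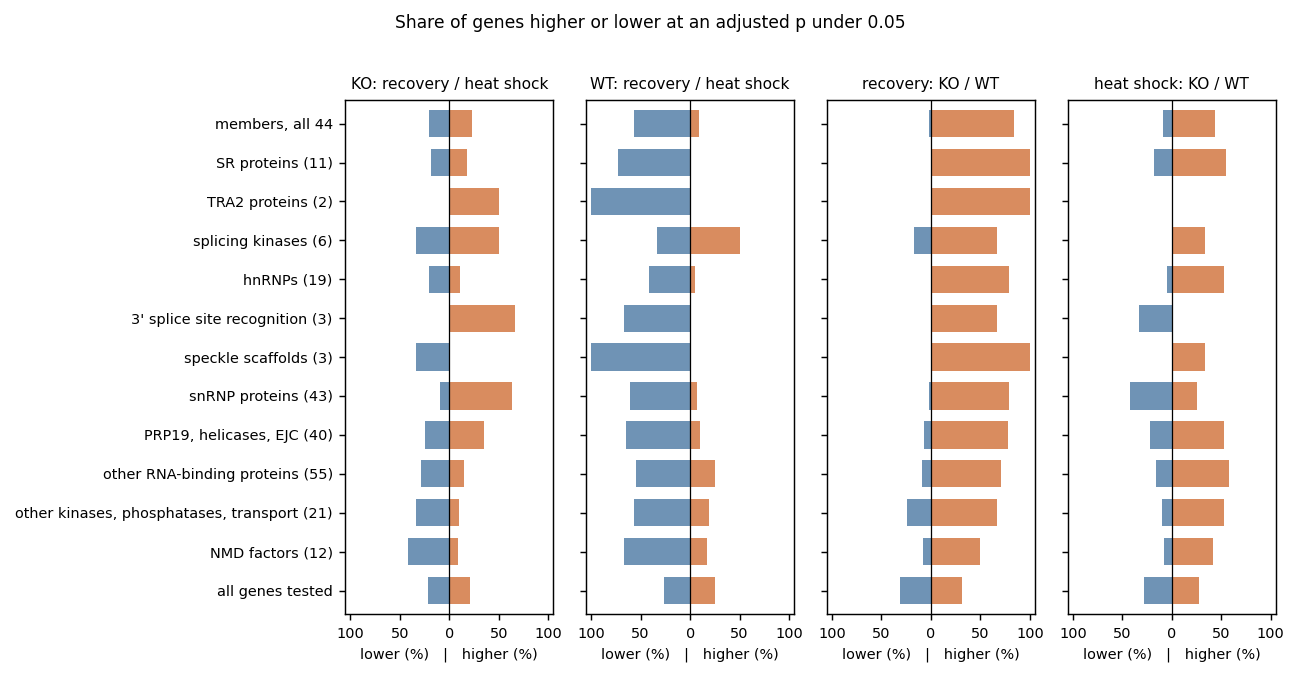
Share of genes called higher (right, orange) or lower (left, blue) at an adjusted p under 0.05 in 4 comparisons, for the 44 genes, their 6 groups by role, 5 other lists of splicing and RNA decay factors, and all 17471 genes tested, with the number of tested genes in brackets. Among the 44 genes 56.8% were lower in WT recovery and 84.1% were higher in KO than in WT cells after recovery.

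SR protein transcripts fell in WT recovery. Of 11 SR protein genes 8 fell in WT cells and none rose, while 2 rose and 2 fell in KO cells, and the difference of responses was positive in 8 and negative in none. Over all genes 26% fell in WT recovery and 28.5% had a positive difference, and the 36.4% of SR protein genes called in KO recovery is near the 41.8% of all genes. SRSF7, which shuttles between nucleus and cytoplasm and also acts in mRNA export, differed most between the lines. Its level was 357 and 239 CPM in KO recovery libraries, 171 and 156 in KO heat shock libraries, 75.5 and 74.7 in WT recovery libraries and 212 and 215 in WT heat shock libraries. The KO recovery libraries are the highest and the WT recovery libraries the lowest, no pair of groups overlaps, and the KO recovery replicates lie far apart. SRSF7 rose in KO recovery (0.84 ± 0.11, adjusted p = 5.7e-06) and fell in WT recovery (-1.51 ± 0.11, adjusted p = 5.6e-09). The difference of responses, 2.35 ± 0.15, adjusted p = 1.1e-09, was the largest among the 44 genes, and leaving out single libraries gave 2.13 to 2.58. In the authors' deposited table the normalized log2 fold changes of SRSF7 were 0.90 and 0.54 in the KO pairs and -1.35 and -1.38 in the WT pairs.

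SRSF2, a speckle protein that binds exonic enhancers, had 391 and 405 CPM in KO recovery libraries, 342 and 339 in KO heat shock libraries, 182 and 170.1 in WT recovery libraries and 328 and 343 in WT heat shock libraries. The WT recovery libraries alone stood low, and the KO recovery libraries were the highest. It fell in WT recovery (-0.93 ± 0.10, adjusted p = 4.4e-07), and in KO recovery its change was 0.23 (adjusted p = 0.068), which passed without the replicate block (adjusted p = 0.033), without the filter, with length and GC offsets (0.33) and without each single WT library. SRSF6, a regulator of alternative exons that binds purine-rich enhancers, had 379 and 374 CPM in KO recovery libraries, 398 and 412 in KO heat shock libraries, 164 and 178 in WT recovery libraries and 296 and 311 in WT heat shock libraries. WT recovery libraries are the lowest and the KO groups the highest. The WT recovery change was -0.83 ± 0.10, adjusted p = 1.4e-06, and its KO recovery change -0.11 (adjusted p = 0.4), or 0.25 with length and GC offsets, where it passed. SRSF8 (-0.80 in WT recovery), SRSF10 (-0.59), the SR-like protein that is dephosphorylated on heat shock, and SRSF1 (-0.43), the founding member that promotes 5′ splice site use, fell in WT cells too. In KO cells their changes were 0.0036, 0.072 and 0.029, with adjusted p of 0.57 to 0.98, and with length and GC offsets they passed as higher (0.21, 0.52 and 0.30). The difference of responses passed for all 3 (SRSF8 0.81, SRSF10 0.67 and SRSF1 0.46), but for SRSF1 not without replicate 1 of KO recovery (0.43, adjusted p = 0.088) or of KO heat shock (0.40, adjusted p = 0.12) or with column totals (0.20). SRSF8 descends from a copy of the SRSF2 transcript, so short reads may be shared between them. AC015813.2, which overlaps SRSF1 on the same strand with 20.4% as many reads, changed by -0.20 in KO and -0.14 in WT recovery.

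SRSF5 and SRSF3 fell in both lines. SRSF5, first known in rat as a growth response gene of liver, had 81.9 and 81.9 CPM in KO recovery libraries, 128 and 144 in KO heat shock libraries, 52.1 and 63.3 in WT recovery libraries and 109 and 126 in WT heat shock libraries. Recovery libraries were lower than heat shock libraries in each line, with no overlap, and the changes were -0.73 ± 0.09, adjusted p = 5.2e-06 in KO and -1.03 ± 0.10, adjusted p = 9.9e-08 in WT cells. Their difference of 0.30 missed the threshold (adjusted p = 0.062), and without replicate 2 of either WT group it passed (0.34 and 0.35). SRSF3, the smallest classical SR protein and an mRNA export adaptor, had 336 and 357 CPM in KO recovery libraries, 452 and 472 in KO heat shock libraries, 175 and 173 in WT recovery libraries and 288 and 344 in WT heat shock libraries. It fell by 0.42 in KO and by 0.86 in WT recovery on the log2 scale (adjusted p = 0.0024 and 1.7e-06). The KO call was lost without each single KO library, with values of -0.38 to -0.43 and adjusted p from 0.058 to 0.11, and with length and GC offsets (-0.052).

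SRSF9, which joins nuclear stress bodies in heated human cells, rose in KO recovery (0.35 ± 0.10, adjusted p = 0.0074) and had -0.24 in WT recovery, which missed the threshold (adjusted p = 0.051) but passed without the replicate block (adjusted p = 0.034) and without the filter. Its libraries held 155 and 135 CPM in KO recovery libraries, 109 and 118 in KO heat shock libraries, 119.5 and 117 in WT recovery libraries and 142 and 137 in WT heat shock libraries. The KO change was lost without replicate 1 of KO recovery (0.22, adjusted p = 0.39) or of KO heat shock (0.20, adjusted p = 0.44), with column totals (0.22) and with length and GC offsets (0.084). GATC, which overlaps SRSF9 on the other strand and held 22.9% as many reads, changed by -0.32 in KO and 0.15 in WT recovery. SRSF4 and SRSF11 passed in neither line, with changes of -0.058 and -0.076 in KO and -0.21 and 0.075 in WT cells. SRSF4 passed as lower in WT recovery without the replicate block (adjusted p = 0.041) and without the filter, and SRSF11 had 0.31 in KO and -0.25 in WT recovery with length and GC offsets.

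The TRA2 proteins, SR-like activators of exon inclusion, fell in WT recovery, and TRA2A rose in KO recovery. TRA2B had 476 and 438 CPM in KO recovery libraries, 399 and 383 in KO heat shock libraries, 170.2 and 157 in WT recovery libraries and 329.7 and 356 in WT heat shock libraries. WT recovery libraries lie far under all others. TRA2B fell in WT recovery (-1.07 ± 0.10, adjusted p = 1.3e-07) and changed by 0.22 in KO recovery (adjusted p = 0.077). That KO change passed without the replicate block (adjusted p = 0.046), without the filter, with length and GC offsets (0.43) and without each single WT library. The difference of responses was 1.29 ± 0.14, adjusted p = 4.1e-07. TRA2A had 212 and 166 CPM in KO recovery libraries, 159 and 148 in KO heat shock libraries, 72.8 and 77.4 in WT recovery libraries and 155 and 169.7 in WT heat shock libraries. It fell in WT recovery (-1.11 ± 0.10, adjusted p = 6.1e-08) and rose in KO recovery (0.29 ± 0.10, adjusted p = 0.021), with a difference of 1.40 ± 0.14, adjusted p = 1.2e-07. The KO rise of TRA2A rests on 2 pairs of unlike size. Without single KO libraries the TRA2A rise was 0.16 to 0.41 with adjusted p of 0.053 to 0.53, and with column totals it was 0.16 (adjusted p = 0.17).

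**Figure D2:**
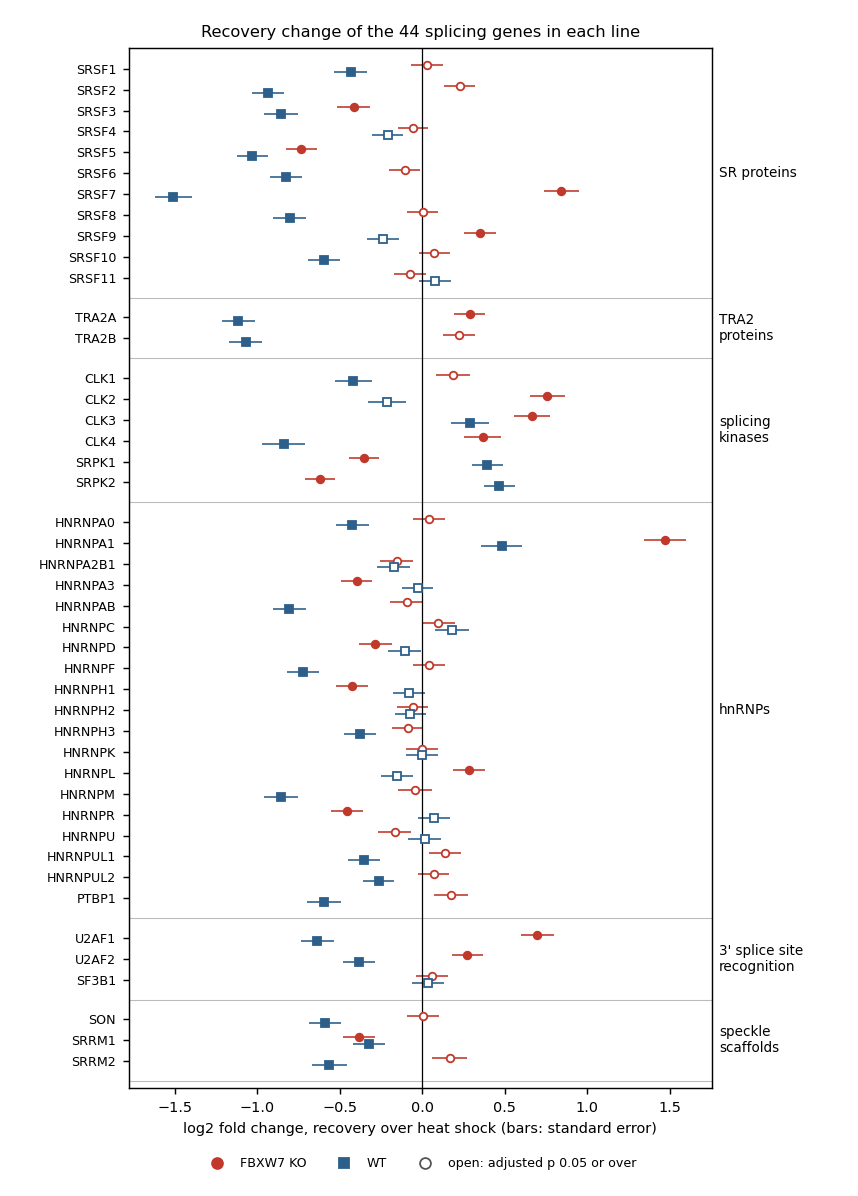
Log2 fold change of recovery over heat shock for each of the 44 genes, grouped by role, in FBXW7 KO cells (red circles) and WT cells (blue squares), with standard errors as bars, 2 libraries per group and open symbols where the adjusted p was 0.05 or over. SRSF7, TRA2A, CLK4, U2AF1 and U2AF2 lie right of 0 in KO and left of 0 in WT cells, and SRPK1 and SRPK2 lie the other way round.

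Promoter sequence is shown for SRSF7, U2AF1 and TRA2B, the genes with the largest difference of responses among those with a window. It is also shown for HNRNPA2B1, which passed in neither line and alone holds the 3-unit heat shock element given below. RefSeq windows of 300 bases (250 before to 50 after the start, GRCh38.p14) were found for 41 of the 44 genes. SRSF2, TRA2A and HNRNPA1 have no window. The windows were searched on both strands for TGACG, the core of sites bound by CREB and ATF factors, for TATAAA, for the paired heat shock element GAANNTTC and for its 3-unit form, the pair extended by NNGAA. They were also searched for CACGTG (the E-box), GGGCGG (the GC box) and CCAAT. Each stretch below runs from 200 bases before the start to 20 after it on the strand of the gene, with matches to TGACG, to TATAAA and to the heat shock elements in capitals (CGTCA is TGACG on the other strand).
SRSF7 (chr2:38751342-38751561, minus strand): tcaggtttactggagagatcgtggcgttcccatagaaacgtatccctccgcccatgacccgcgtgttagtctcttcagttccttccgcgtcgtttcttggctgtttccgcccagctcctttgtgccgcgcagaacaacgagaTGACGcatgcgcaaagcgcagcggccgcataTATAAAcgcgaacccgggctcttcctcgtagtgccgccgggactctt
TRA2B (chr3:185937995-185938214, minus strand): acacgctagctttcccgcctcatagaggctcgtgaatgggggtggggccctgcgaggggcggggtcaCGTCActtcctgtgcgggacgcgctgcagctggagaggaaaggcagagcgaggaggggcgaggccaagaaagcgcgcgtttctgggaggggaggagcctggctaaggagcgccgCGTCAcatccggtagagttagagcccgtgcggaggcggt
U2AF1 (chr21:43107551-43107770, minus strand): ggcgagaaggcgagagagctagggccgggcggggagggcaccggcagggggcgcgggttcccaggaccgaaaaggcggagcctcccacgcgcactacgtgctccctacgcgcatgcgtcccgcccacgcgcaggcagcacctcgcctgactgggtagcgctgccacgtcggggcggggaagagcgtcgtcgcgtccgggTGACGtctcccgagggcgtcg
HNRNPA2B1 (chr7:26200727-26200946, minus strand): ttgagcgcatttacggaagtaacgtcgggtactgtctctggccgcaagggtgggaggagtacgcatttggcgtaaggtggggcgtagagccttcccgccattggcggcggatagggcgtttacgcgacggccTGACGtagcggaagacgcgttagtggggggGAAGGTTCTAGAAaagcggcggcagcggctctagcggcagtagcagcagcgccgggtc

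In the stretches shown, SRSF7 holds TGACG shortly upstream of a TATAAA, TRA2B holds TGACG on the other strand at 2 places, and U2AF1 holds it across its start. Where a gene had several windows, the one with most matches to TGACG and TATAAA was shown. This applied to SRSF7, whose other window (chr2:38751445-38751744) holds 0 matches to either. A window with TGACG was found for 25 of the 41 genes (61.0%), against 28.4% of all 27305 genes with windows, and per window the shares were 42.9% of 63 and 24.6% of 35116. Of the 5 genes that rose in KO and fell in WT recovery, SRSF7, CLK4 and U2AF1 hold TGACG, U2AF2 holds none and TRA2A has no window. Of the 2 that moved the other way round, SRPK2 holds it, though not in every window, and SRPK1 holds none. The part of this motif in the changes was not tested. By gene, the shares of other motifs were above those of all genes too. They were 22.0% against 8.77% for CACGTG, 70.7% against 48.3% for GGGCGG and 51.2% against 39.7% for CCAAT. Per window, in the same order, they were 15.9% against 7.26%, 57.1% against 45.0% and 38.1% against 34.6%. A gene with several windows has more places for a match, so shares by gene are not free of window number. The heat shock pair was found in 3 genes, HNRNPA2B1, HNRNPC and SRSF8 (7.32% of genes, against 8.21% of all), and the 3-unit form in HNRNPA2B1 alone (2.44%, against 0.608%). TATAAA was found in 7 genes (17.1%, against 14.0%), but per window the shares were 11.1% against 11.5%. A match describes these letters only and is not a bound site.

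The splicing kinases moved in both directions. CLK2, CLK3 and CLK4 rose in KO recovery, while SRPK1 and SRPK2 fell there and rose in WT recovery. CLK2 had 55.4 and 52.7 CPM in KO recovery libraries, 33.0 and 31.0 in KO heat shock libraries, 32.3 and 33.0 in WT recovery libraries and 44.1 and 32.4 in WT heat shock libraries. The KO recovery libraries stand above all others, and the WT heat shock replicates are far apart. CLK2 rose in KO recovery (0.76 ± 0.11, adjusted p = 1.8e-05), and its WT change was -0.21 (adjusted p = 0.12), with -0.44 without WT recovery replicate 2 and -0.44 without WT heat shock replicate 2, where it passed. Without replicate 1 of WT recovery or of WT heat shock the CLK2 change was 0.0027 and -0.0034 (adjusted p = 0.99 and 0.99). CLK4, a close relative of CLK1, had 29.1 and 27.9 CPM in KO recovery libraries, 24.9 and 19.6 in KO heat shock libraries, 11.3 and 12.4 in WT recovery libraries and 23.0 and 19.5 in WT heat shock libraries. It rose in KO (0.37 ± 0.11, adjusted p = 0.013) and fell in WT recovery (-0.84 ± 0.13, adjusted p = 3.2e-05), and the difference was 1.21 ± 0.17, adjusted p = 9.1e-06. The KO rise was lost without KO recovery replicate 2 (0.22, adjusted p = 0.38), without KO heat shock replicate 2 (0.22, adjusted p = 0.38), with DESeq2 (0.36, adjusted p = 0.1) and with column totals (0.24).

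CLK1, whose retained-intron transcript is known to be spliced on heat stress, had 89.5 and 76.7 CPM in KO recovery libraries, 83.4 and 63.6 in KO heat shock libraries, 43.6 and 48.6 in WT recovery libraries and 69.0 and 54.7 in WT heat shock libraries. It fell in WT recovery (-0.42 ± 0.11, adjusted p = 0.0041), but replicates disagreed in size, with -0.20 (adjusted p = 0.22) without WT recovery replicate 1, -0.20 (adjusted p = 0.21) without WT heat shock replicate 1, and -0.65 and -0.66 without the replicates numbered 2. In KO recovery the CLK1 change was 0.19 (adjusted p = 0.17), and it passed without each single WT library (each 0.20). The difference of responses of CLK1 was 0.60 ± 0.15, adjusted p = 0.0024. CLK3 rose in KO recovery (0.66 ± 0.11, adjusted p = 1.0e-04), with 91.9 and 77.0 CPM in KO recovery libraries, against 52.6 and 53.4 CPM in KO heat shock libraries. Its WT change of 0.29 was close to the threshold (adjusted p = 0.044) and rested on heat shock libraries of 62.3 and 42.8 CPM. Without WT heat shock replicate 2 it was 0.037 (adjusted p = 0.84), without WT recovery replicate 2 it was 0.042 (adjusted p = 0.81), and it missed the threshold without each of 3 KO libraries and with DESeq2 (adjusted p = 0.099). EDC3, on the other strand of CLK3 and with 69.7% as many reads, changed by 0.11 in KO and -0.47 in WT recovery.

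SRPK1 had 217 and 226 CPM in KO recovery libraries, 280.1 and 287 in KO heat shock libraries, 201 and 206 in WT recovery libraries and 151 and 158 in WT heat shock libraries. KO heat shock libraries are the highest and WT heat shock libraries the lowest, and the recovery libraries of the lines lie between them. SRPK1 fell in KO (-0.35 ± 0.09, adjusted p = 0.005) and rose in WT recovery (0.39 ± 0.09, adjusted p = 0.0019). SRPK2 had 67.0 and 70.7 CPM in KO recovery libraries, 111 and 101 in KO heat shock libraries, 91.0 and 92.4 in WT recovery libraries and 66.1 and 66.6 in WT heat shock libraries. It fell in KO (-0.62 ± 0.09, adjusted p = 3.1e-05) and rose in WT recovery (0.47 ± 0.09, adjusted p = 4.4e-04), and the difference of -1.09 was the most negative of the 44 genes (adjusted p = 1.5e-06). The SRPK1 difference was -0.75 ± 0.13, adjusted p = 9.7e-05. The KO fall of SRPK1 was lost without each single KO library (values of -0.32 to -0.37, adjusted p from 0.1 to 0.19) and with length and GC offsets (-0.097), while the SRPK2 call held in all alternatives tried. KMT2E overlaps SRPK2 on the other strand with 133% as many reads, and changed by -0.36 in KO and -0.041 in WT recovery.

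**Figure D3:**
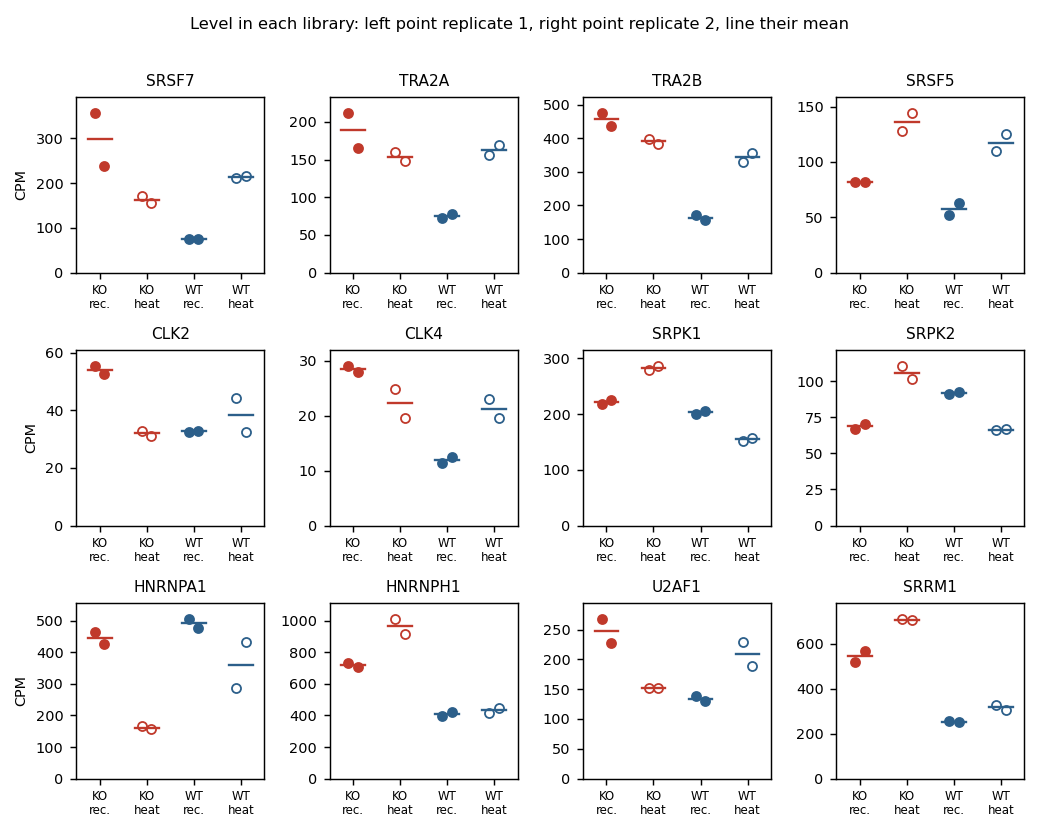
Level in CPM (linear axis from 0) in each of the 8 libraries for 12 of the genes, with red for FBXW7 KO and blue for WT, filled points for recovery, open points for heat shock and lines for the mean of 2 replicates. SRSF7, TRA2A, TRA2B and CLK4 are lowest in WT recovery, SRPK1 and SRPK2 are highest in KO heat shock, and HNRNPA1 is lowest in KO heat shock.

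Among hnRNP genes the recovery changes leaned to lower in WT cells and were mixed in KO cells. Of 19 genes 8 fell and 1 rose in WT cells, 4 fell and 2 rose in KO cells, and the difference of responses was positive in 9 and negative in 3. The shares called, 47.4% in WT and 31.6% in KO recovery, are near or below the 50.8 and 41.8% of all genes. By direction 42.1% fell and 5.26% rose in WT recovery, against 26 and 24.8% of all genes. The difference of responses was positive in 47.4% and negative in 15.8%, against 28.5 and 27.8% of all genes. HNRNPA1, an abundant repressor of splice sites that moves to the cytoplasm under stress, rose in both lines. Its level was 465 and 427 CPM in KO recovery libraries, 166 and 156 in KO heat shock libraries, 507 and 477 in WT recovery libraries and 287 and 432 in WT heat shock libraries. The KO heat shock libraries stand far below the others, and the WT heat shock replicates differ widely. The change was 1.47 ± 0.13, adjusted p = 4.3e-08 in KO and 0.48 ± 0.12, adjusted p = 0.0034 in WT recovery, with a difference of 0.99 ± 0.18, adjusted p = 9.7e-05. The WT rise was lost without replicate 1 of WT recovery (0.12, adjusted p = 0.48) or of WT heat shock (0.11, adjusted p = 0.51), and without replicate 2 of these groups it was 0.82 and 0.83. The difference was 0.66 without WT recovery replicate 2. Rows for 30 copies of HNRNPA1 held 9.92 and 11.7% as many reads as the gene in KO heat shock libraries and 2.94 to 5.22% in the other 6, so reads shared with copies make its values less certain.

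The hnRNPs that fell in WT recovery were PTBP1 (-0.60), the polypyrimidine tract binding repressor, HNRNPM (-0.85), HNRNPAB (-0.80), HNRNPF (-0.72), which binds runs of G, HNRNPA0 (-0.42), HNRNPH3 (-0.38), HNRNPUL1 (-0.35) and HNRNPUL2 (-0.27). None of the 8 passed in KO recovery, where their changes ran from -0.095 to 0.18, but with length and GC offsets HNRNPAB (-0.33) and HNRNPM (-0.22) passed as lower and HNRNPA0 (0.35) as higher. HNRNPM had 511 and 444 CPM in KO recovery libraries, 492 and 491 in KO heat shock libraries, 249 and 251 in WT recovery libraries and 484 and 421 in WT heat shock libraries. Only the WT recovery libraries are low, and the difference of responses was 0.81 ± 0.14, adjusted p = 1.0e-04. For PTBP1 the levels were 685 and 650.0 CPM in KO recovery libraries, 579 and 603 in KO heat shock libraries, 384 and 371 in WT recovery libraries and 634 and 513 in WT heat shock libraries, and the difference was 0.77 ± 0.14, adjusted p = 1.7e-04. The HNRNPUL2 call was lost without WT recovery replicate 1 (-0.25, adjusted p = 0.095), without WT heat shock replicate 1 (-0.26, adjusted p = 0.086), without each single KO library (each -0.27, adjusted p up to 0.063) and with upper-quartile scaling (-0.17), and those of HNRNPUL1 and HNRNPUL2 with length and GC offsets (each -0.11). HNRNPUL2 also overlaps a readthrough gene on the same strand, HNRNPUL2-BSCL2, whose row held 97.5% as many reads.

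In KO recovery HNRNPR (-0.46 ± 0.10, adjusted p = 9.0e-04), HNRNPH1 (-0.42 ± 0.10, adjusted p = 0.0017), HNRNPA3 (-0.40 ± 0.09, adjusted p = 0.0024) and HNRNPD (-0.29 ± 0.10, adjusted p = 0.026), the AU-rich element binding protein also called AUF1, fell, and HNRNPL (0.28 ± 0.10, adjusted p = 0.024), which binds CA repeats, rose. In WT recovery their changes were 0.070, -0.079, -0.028, -0.11 and -0.15, none past the threshold. HNRNPH1 had 730.3 and 706 CPM in KO recovery libraries, 1013 and 917 in KO heat shock libraries, 395 and 424 in WT recovery libraries and 417 and 447 in WT heat shock libraries. KO heat shock libraries stand above all others, and both WT groups lie together at the bottom. The KO calls were lost without replicate 2 of either KO group for HNRNPR (both -0.41, adjusted p up to 0.076), and without replicate 1 of either KO group for HNRNPH1 (-0.35 and -0.38, adjusted p up to 0.15) and HNRNPA3 (-0.32 and -0.34, adjusted p up to 0.19). Those of HNRNPD and HNRNPL were lost without each of the 4 KO libraries, with -0.23 to -0.34 and 0.27 to 0.30 (adjusted p from 0.19 to 0.34 and from 0.2 to 0.3). With length and GC offsets HNRNPR and HNRNPA3 had 0.059 and 0.055 in KO recovery. The negative difference of responses of HNRNPR, HNRNPH1 and HNRNPA3 (-0.53, -0.35 and -0.37) turned positive with those offsets for HNRNPR (0.43) and HNRNPA3 (0.44). Without KO recovery replicate 2 these 3 differences were -0.47, -0.39 and -0.42, with adjusted p of 0.059, 0.12 and 0.092.

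Several of the most abundant hnRNPs passed in neither line. HNRNPA2B1, whose promoter holds the 3-unit heat shock element, had 1496 and 1306 CPM in KO recovery libraries, 1574 and 1535 in KO heat shock libraries, 971 and 1026 in WT recovery libraries and 1115 and 1138 in WT heat shock libraries, with changes of -0.15 and -0.17. HNRNPC, which binds tracts of U, changed by 0.098 in KO and 0.18 in WT recovery, and HNRNPU, the scaffold attachment factor, by -0.17 and 0.014. HNRNPK, a poly-C binding protein, had 709 and 702 CPM in KO recovery libraries, 698 and 716 in KO heat shock libraries, 600.2 and 614 in WT recovery libraries and 586 and 629 in WT heat shock libraries, the flattest recovery pattern of the set. HNRNPH2 changed by -0.059 and -0.074. It overlaps a readthrough gene on the same strand, RPL36A-HNRNPH2, whose row held 59.1% as many reads. That row changed by 0.57 in KO and -0.17 in WT recovery. Some calls of these hnRNPs turned on the processing. With length and GC offsets HNRNPC (0.47) and HNRNPK (0.22) passed in KO recovery and HNRNPA2B1 (-0.49) and HNRNPH2 (-0.29) in WT recovery. With column totals HNRNPA2B1 (-0.28) and HNRNPU (-0.29) passed in KO recovery. HNRNPC passed in WT recovery with upper-quartile scaling (0.27), with column totals (0.32) and without replicate 2 of either WT group (0.30 and 0.29). Per kilobase of the longest coding transcript, HNRNPA2B1 had the highest level of the 44 genes in every group. It had 382, 424, 273 and 307 CPM per kilobase in KO recovery, KO heat shock, WT recovery and WT heat shock. CLK3, CLK4 and SRSF8 were the lowest in every group on this scale, at 4.61 to 11.2. For CLK3 this rests on a longest coding transcript of 10498 bases, and its mean CPM was above those of CLK2, CLK4 and SRSF8 in every group.

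Both subunits of U2AF, which reads the 3′ splice site, moved apart between the lines. U2AF1, the subunit that contacts the AG dinucleotide, had 268 and 227 CPM in KO recovery libraries, 152 and 152 in KO heat shock libraries, 138 and 130.1 in WT recovery libraries and 229.9 and 188 in WT heat shock libraries. It rose in KO (0.70 ± 0.10, adjusted p = 2.1e-05) and fell in WT recovery (-0.64 ± 0.10, adjusted p = 4.0e-05), with a difference of 1.33 ± 0.14, adjusted p = 3.1e-07, and all of these calls held in every alternative tried. U2AF2, the subunit that binds the pyrimidine tract, had 247 and 240.1 CPM in KO recovery libraries, 201 and 201 in KO heat shock libraries, 156 and 141 in WT recovery libraries and 207 and 181 in WT heat shock libraries. Its changes were smaller, 0.27 ± 0.09, adjusted p = 0.024 in KO and -0.38 ± 0.09, adjusted p = 0.0023 in WT recovery. The KO change of U2AF2 was lost without each single KO library (0.25 to 0.29, adjusted p from 0.19 to 0.31) and the WT change with length and GC offsets (-0.12, adjusted p = 0.22). SF3B1, the branch site protein of the U2 snRNP, changed by 0.057 and 0.035 and passed in none of the 5 comparisons. With length and GC offsets SF3B1 passed in KO recovery (0.38), in the difference of responses (0.56) and between lines at recovery (0.33), and without the filter between lines at recovery too.

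The speckle proteins all fell in WT recovery. SON, a scaffold of the speckle core, had 444 and 444 CPM in KO recovery libraries, 444 and 439 in KO heat shock libraries, 261 and 264 in WT recovery libraries and 415 and 377 in WT heat shock libraries. The KO groups are level, and the WT change was -0.59 ± 0.10, adjusted p = 6.4e-05. SRRM2, the other core scaffold, changed by -0.56 ± 0.11, adjusted p = 2.3e-04 in WT and 0.17 (adjusted p = 0.22) in KO recovery. SRRM1, a coactivator of splicing, fell in both lines (-0.38 ± 0.10, adjusted p = 0.0041 in KO and -0.32 ± 0.10, adjusted p = 0.011 in WT cells), with 519 and 569 CPM in KO recovery libraries, 711 and 705 in KO heat shock libraries, 254 and 253 in WT recovery libraries and 329 and 305 in WT heat shock libraries. The SRRM1 KO call was lost without replicate 1 of KO recovery (-0.28, adjusted p = 0.27) or of KO heat shock (-0.31, adjusted p = 0.23), and the WT call without WT recovery replicate 1 (-0.29) and with upper-quartile scaling (-0.23). GART, which overlaps SON on the other strand with 65.9% as many reads, changed by -0.23 in KO and 0.30 in WT recovery.

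Set against each other after recovery, KO cells held more of nearly all of these transcripts than WT cells. All 11 SR proteins, both TRA2 proteins, 4 of 6 kinases, 15 of 19 hnRNPs, both U2AF subunits and all 3 speckle proteins were higher. SRSF7 differed most (1.99 ± 0.14, adjusted p = 3.6e-08), followed by TRA2B (1.48 ± 0.09, adjusted p = 5.4e-09), HNRNPAB (1.34 ± 0.09, adjusted p = 1.7e-08), TRA2A (1.33 ± 0.11, adjusted p = 1.4e-07), CLK4 (1.26 ± 0.13, adjusted p = 1.6e-06), SRSF10 (1.19 ± 0.09, adjusted p = 4.2e-08) and SRSF2 (1.18 ± 0.08, adjusted p = 2.4e-08). HNRNPAB, a regulator of mRNA translation and stability, had 357 and 339 CPM in KO recovery libraries, against 147 and 127 CPM in WT recovery libraries, and SRSF10 had 222 and 216 CPM in KO recovery libraries, against 96.4 and 95.3 CPM in WT recovery libraries. Over all genes 31.8% were called higher. In each of the 37 genes the lowest KO library lay above the highest WT library. The KO and WT libraries also did not overlap in the 6 genes that did not pass, so non-overlap does not set the 37 apart. Its share over all genes was not counted. SRPK2 was lower in KO cells (-0.41 ± 0.08, adjusted p = 4.8e-04), with 67.0 and 70.7 CPM in KO recovery libraries, against 91.0 and 92.4 CPM in WT recovery libraries. SRPK1, HNRNPA1, HNRNPA3, HNRNPC, HNRNPH2 and SF3B1 did not pass, with differences from -0.14 to 0.13. Of the 38 calls, 32 held in all alternatives. Without WT recovery replicate 1 the calls of CLK3 (0.42, adjusted p = 0.052), HNRNPK (0.20, adjusted p = 0.16) and SRSF11 (0.29, adjusted p = 0.059) were lost, without WT recovery replicate 2 those of CLK3 (0.39, adjusted p = 0.069), HNRNPK (0.22, adjusted p = 0.12), HNRNPUL1 (0.27, adjusted p = 0.063) and SRSF9 (0.27, adjusted p = 0.079), and with column totals that of HNRNPL (0.19, adjusted p = 0.051). Without KO recovery replicate 1 CLK3 and SRSF9 had 0.29 and 0.20 (adjusted p = 0.14 and 0.12), and without each single KO library HNRNPK had 0.21 to 0.23 (adjusted p from 0.053 to 0.077). Upper-quartile scaling and column totals both ended the calls of HNRNPK (0.050 and 0.029), SRSF9 (0.13 and 0.10), SRSF11 (0.16 and 0.14), CLK3 (0.25 and 0.23) and HNRNPUL1 (0.13 and 0.11), the last also with length and GC offsets (0.14).

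At the end of heat shock the lines already differed, with another order of genes. The 52.3% of the 44 genes called is near the 55.6% of all genes. By direction 43.2% were higher and 9.09% lower in KO cells, against 27.4 and 28.2% of all genes. Their median difference of 0.20 became 0.02 with length and GC offsets. SRRM1 (1.16 ± 0.08, adjusted p = 8.0e-08), HNRNPH1 (1.16 ± 0.09, adjusted p = 1.1e-07), HNRNPR (1.02 ± 0.08, adjusted p = 2.4e-07), SRPK1 (0.87 ± 0.08, adjusted p = 5.9e-07) and HNRNPD (0.86 ± 0.08, adjusted p = 9.8e-07) were the most raised in KO cells. HNRNPR, a close relative of the synaptotagmin-binding SYNCRIP, had 544 and 558 CPM in KO heat shock libraries, against 257 and 286 CPM in WT heat shock libraries. HNRNPA1 (-1.16 ± 0.14, adjusted p = 8.2e-06), U2AF1 (-0.46 ± 0.10, adjusted p = 0.0018), SRSF7 (-0.39 ± 0.13, adjusted p = 0.023) and SRSF9 (-0.30 ± 0.09, adjusted p = 0.0099) were lower in KO cells. SRSF7, SRSF9 and U2AF1 were thus lower in KO cells at heat shock and higher after recovery. SRPK2 was higher in KO cells at heat shock (0.68) and lower after recovery. TRA2A, TRA2B, SRSF2, SRSF5, SRSF8 and all 4 CLK genes did not pass at heat shock, with differences from -0.26 to 0.25. Of the 23 calls, 12 held in all alternatives. Those of HNRNPUL2 (0.23 and 0.27) and HNRNPK (0.24 and 0.20) were lost without KO heat shock replicate 1 and without replicate 2. The HNRNPH3 call was lost with length and GC offsets (0.14, adjusted p = 0.16). The SRSF7 call was lost without KO heat shock replicate 2 (-0.33, adjusted p = 0.14) and the SRSF9 call without KO heat shock replicate 1 (-0.24, adjusted p = 0.11), and with length and GC offsets the differences of SRSF6, SRSF10, SRSF11, HNRNPA2B1, HNRNPA3 and HNRNPK, called higher in KO cells, went to -0.22 to -0.010.

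**Figure D4:**
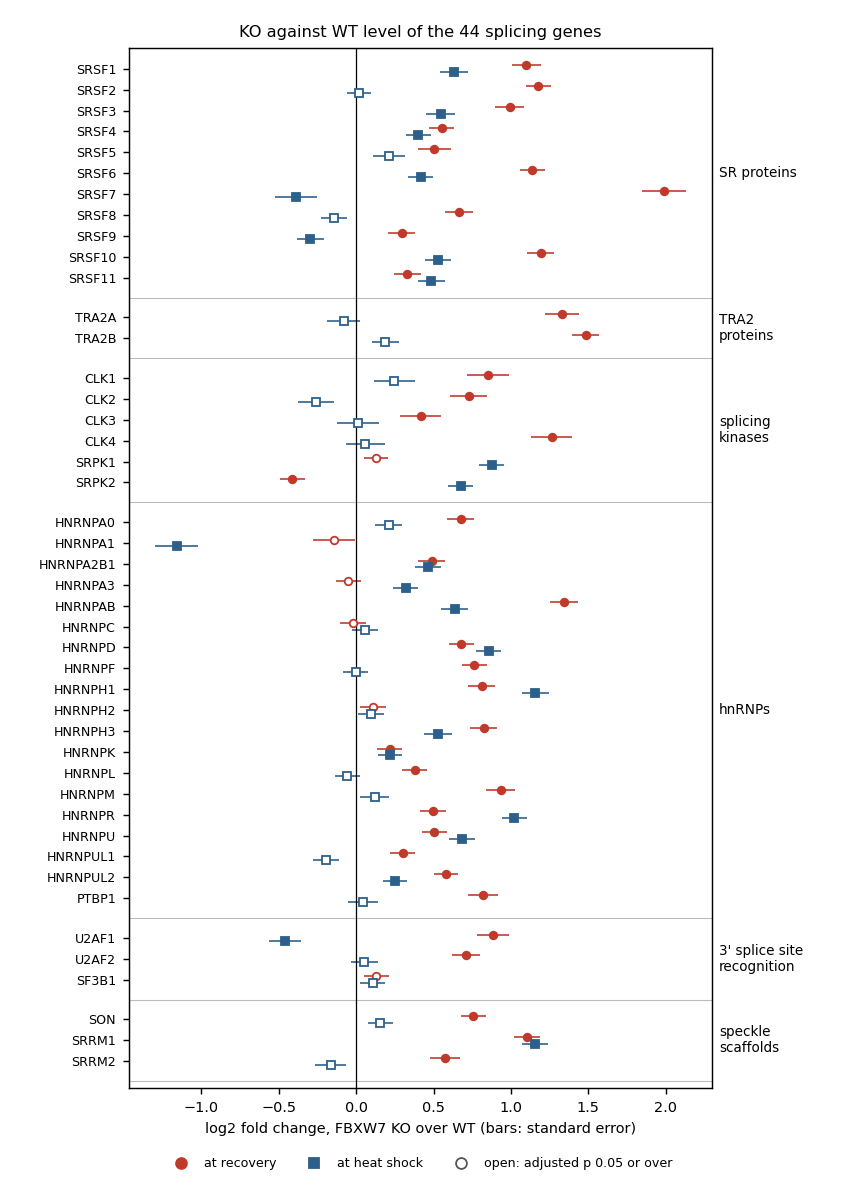
Log2 fold change of FBXW7 KO over WT for each of the 44 genes, grouped by role, at recovery (red circles) and at heat shock (blue squares), with standard errors as bars, 2 libraries per group and open symbols where the adjusted p was 0.05 or over. At recovery 37 genes lie right of 0 and pass, with SRSF7 farthest at 1.99, and at heat shock HNRNPA1 lies farthest left at -1.16.

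Other parts of the splicing machinery were counted from lists of named genes. Of 43 tested proteins of the snRNPs 26 fell and 3 rose in WT recovery, while 27 rose and 4 fell in KO recovery, and 34 were higher and 1 lower in KO than in WT cells after recovery. SNRPE (2.46), SNRPD2 (1.22) and SF3B5 (1.17) rose in KO recovery, and SF3B5 (-0.96), SF3B4 (-0.96) and DDX23 (-0.91) fell in WT recovery. Of 40 genes of the PRP19 complex, the spliceosomal helicases and the exon junction complex, 26 fell and 4 rose in WT recovery and 14 rose and 10 fell in KO recovery, with EIF4A3, the exon junction helicase, at 0.61 in KO and -0.89 in WT cells. Of 55 other RNA-binding proteins of splicing 30 fell and 14 rose in WT recovery and 16 fell and 8 rose in KO recovery, and SFPQ, a paraspeckle protein, had a WT change of -1.39. Among 21 other kinases, phosphatases and transport factors 12 fell and 4 rose in WT recovery and 7 fell and 2 rose in KO recovery, with NXF1, the mRNA export receptor, at -1.10 in WT cells. Of 12 factors of nonsense-mediated decay 8 fell and 2 rose in WT recovery and 5 fell and 1 rose in KO recovery. Over all genes 26% fell and 24.8% rose in WT recovery, 21.1% fell and 20.6% rose in KO recovery, and 31.8% were higher and 31.3% lower in KO than in WT cells after recovery.

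Transcript length moved with the recovery change in KO cells, and the other way in WT cells. Coding genes with a longest coding transcript under 1000 bases had a median change of 0.52 in KO recovery and -0.23 in WT recovery, and those of 5000 bases or more -0.20 in KO and 0.07 in WT recovery. For the same length classes the median difference of responses was 0.76 and -0.29. The median of KO over WT was -0.49 and 0.12 at heat shock, and 0.29 and -0.11 at recovery. None of the 44 genes is under 1000 bases, and their median length of 3521 bases is close to the 3365 of all tested coding genes. The 15 genes of 2000 to 3000 bases, among them SRSF7, TRA2A, TRA2B, SRSF2 and CLK4, had a median of 0.19 in KO and -0.72 in WT recovery, against 0.05 and -0.11 for all 2968 coding genes of that length. The 17 genes of 3000 to 5000 bases had -0.08 in KO and -0.32 in WT recovery, against -0.10 and -0.01 for coding genes of that length. The 9 genes of 5000 bases or more had 0.04 in KO and -0.03 in WT recovery. Median GC content was 42.9% in the 44 genes and 49.5% in coding genes. A transcript annotated for nonsense-mediated decay was listed in 36 of the 44 (81.8%), against 42.7% of coding genes, and a retained-intron transcript in 35 (79.5%), against 56.4%, and the part of length, GC content and such transcripts in the changes was not tested beyond the offsets.

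**Figure D5:**
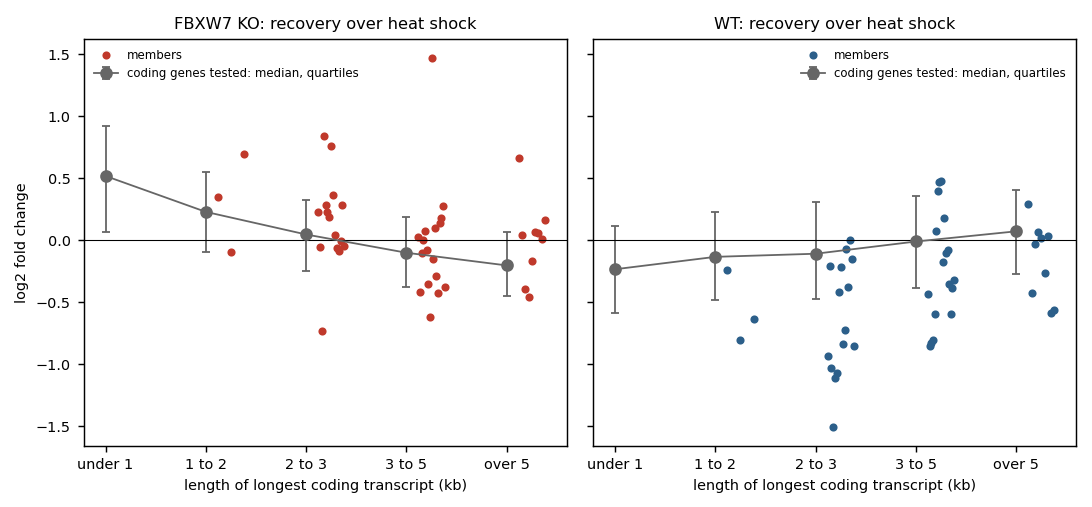
Log2 fold change of recovery over heat shock in FBXW7 KO (left) and WT cells (right) by length of the longest coding transcript in kilobases. Grey points and bars are medians and quartiles of all tested coding genes, and coloured points are the 44 genes. Grey medians run from 0.52 to -0.20 with length in KO cells and from -0.23 to 0.07 in WT cells, and the members of 2 to 3 kilobases lie mostly below the grey median in WT cells.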

How the data were processed

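The authors deposited whole-number read counts per gene in 4 comparison tables, each with a recovery and a heat shock library. Per the file headers these also hold a log2 fold change normalized by column totals and a q-value (Benjamini-Hochberg), in the layout of DEGseq's DEGexp. CASAVA, TopHat and hg19 are named in the submitters' processing notes. How reads were counted, and whether strand was used, is not given in these sources, so overlapping and antisense genes may share reads. Genes listed as NA were set to 0.

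All 8 libraries entered each fit of the edgeR 4.0.16 quasi-likelihood test (R 4.3.3), after filterByExpr and TMM scaling. Recovery was tested within matched pairs, as the series design text describes (2 residual degrees of freedom), though deviations of paired libraries did not correlate across genes (r = -0.03 in KO and -0.01 in WT cells). KO was set against WT without a block (4 residual degrees of freedom). Benjamini-Hochberg adjustment covered 17471 genes, and DESeq2 1.42.0 was an alternative. The fits were tested on simulated data. CPM use TMM-scaled library sizes, and a standard error is the fold change divided by the square root of F. Counts carry no molecular identifiers.

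Replicate libraries correlated at r = 0.994 to 0.997, and each pair of replicates varied beyond sampling noise. Lengths and GC content come from GENCODE 29 and promoters from RefSeq, both on GRCh38, while the counts are on hg19, so no coordinates were joined between builds. All 44 genes are named whatever their values, and of other lists up to 4 genes with the lowest p in a comparison. Members, lists and rules were chosen with earlier results of these data known.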

Additional observations from a re-analysis of the deposited data

Results flagged for a closer look

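The log2 recovery change in KO cells minus that in WT cells passed the test of the difference itself in 31 of the 44 genes, which is 70.5% beside 56.3% of all 17471 genes tested. Positive differences that held in every alternative tried were those of SRSF7 (2.35), TRA2A (1.40), U2AF1 (1.33), TRA2B (1.29), CLK4 (1.21), SRSF2 (1.16), HNRNPA1 (0.99), CLK2 (0.97), HNRNPM (0.81), SRSF8 (0.81), PTBP1 (0.77), HNRNPF (0.77), SRRM2 (0.73), SRSF6 (0.72), SRSF10 (0.67) and SON (0.60). Positive differences that missed the threshold in at least 1 alternative were those of HNRNPAB (0.71), U2AF2 (0.66), CLK1 (0.60), SRSF9 (0.59), HNRNPUL1 (0.49), SRSF1 (0.46), HNRNPA0 (0.46), SRSF3 (0.44), HNRNPL (0.43) and HNRNPUL2 (0.33). Negative differences were those of SRPK2 (-1.09) and SRPK1 (-0.75), which held, and of HNRNPR (-0.53), HNRNPA3 (-0.37) and HNRNPH1 (-0.35), which did not. For SRSF7, TRA2A, CLK4, U2AF1 and U2AF2 the lines moved in opposite directions with both changes past the threshold, KO up and WT down, and for SRPK1 and SRPK2 they did so with KO down and WT up. Groups of 2 libraries are too small for a test of single outlying libraries.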

How the results depend on the processing

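Of 3300 recomputed values of single genes, 3001 kept their side of the threshold without turning a call. Another 173 lost a call and 100 gained one with the sign kept, and 26 reversed. A reversal is a change of sign where the main fit, the alternative or both passed the threshold, so not each is a call that turned round. Column total scaling was chosen after seeing the data. Some counts of the 44 genes moved by more than 1.5 times and are given next. Ranges without single libraries are whole ranges, which also hold counts that moved less. In KO recovery 5 rose with column totals and 18 with length and GC offsets, and without single libraries 6 to 13 rose and 3 to 9 fell. The difference of responses was negative in 9 genes with column totals, in 3 without the filter, in 3 with length and GC offsets and in 2 to 4 without single libraries. At heat shock 10 were lower in KO cells with length and GC offsets and 3 to 8 without single libraries, and at recovery 2 with upper-quartile scaling and 4 with column totals. Changing the replicate block moved no count by more than 1.5 times. Without the block 12 genes rose and 9 fell in KO recovery, beside 3611 and 3788 of all 17471 genes. In WT recovery 3 rose and 27 fell without it, beside 4442 and 4603. With the replicate block 37 were higher and 1 lower in KO cells at recovery, beside 5550 and 5463. At heat shock the numbers with it were 20 and 4, beside 4751 and 4905.

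Nearly all reversals came with the length and GC offsets, whose cause was not tested further. In KO recovery they gave HNRNPA3 0.055, HNRNPK 0.22, HNRNPR 0.059, SRSF11 0.31 and SRSF6 0.25, and in WT recovery HNRNPR -0.37 and SRSF11 -0.25. The difference of responses became 0.44 for HNRNPA3, 0.57 for HNRNPC, 0.41 for HNRNPK, 0.43 for HNRNPR, 0.30 for HNRNPU and 0.56 for SRSF11. Between lines at heat shock they gave CLK4 -0.42, HNRNPA2B1 -0.022, HNRNPA3 -0.22, HNRNPC -0.39, HNRNPH2 -0.18, HNRNPK -0.074, SF3B1 -0.23, SRSF10 -0.052, SRSF11 -0.010 and SRSF6 -0.011, and at recovery HNRNPA3 0.22 and HNRNPC 0.19. The single exception was CLK3 at heat shock, which had -0.25 without WT heat shock replicate 2 and 0.27 with replicate 1 left out in its place. With 2 libraries per group, leaving out either library of a matched pair leaves that line with a single pair, whose spread is taken from the others.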
